A study of Homo sapiens with 6 samples.

Results

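The genes described here sense sterol in the endoplasmic reticulum, carry that signal to the nucleus and act on cholesterol uptake by hepatocytes. They are SREBF1, SREBF2, SCAP, INSIG1, INSIG2, MYLIP, STARD4 and NPC1L1, chosen by symbol, and these 8 genes were all found among the 34036 genes in the count table. RNA was sequenced from HepG2, a human line derived from a liver cancer, so the 6 libraries, 3 siCON and 3 siDGk, all come from 1 line. All were grown in EMEM with 10% heat-inactivated serum and harvested 48 h after lipid-based transfection with RNAiMAX. siDGk cells received a siGENOME pool against DGUOK, which encodes the mitochondrial kinase of deoxyguanosine, and siCON cells a non-targeting siRNA, each at 6 pmol per well of a 24-well plate. The groups were read from the sample titles, because the treatment entry gives siControl for each of the 6 libraries. Library totals were 19065684, 18915508 and 10527216 counts in siCON replicates 1, 2 and 3, and 18613138, 15978314 and 21334876 counts in siDGk replicates 1, 2 and 3. The labels number the replicates without saying whether they were cultures grown apart, so p-values measure the spread between these libraries, which may be technical.

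SREBP proteins are transcription factors made as membrane precursors. When sterol is low, SCAP escorts the precursor from the endoplasmic reticulum to the Golgi, where the proteases MBTPS1 and MBTPS2 release the active fragment; when sterol is high, INSIG proteins hold SCAP back. SREBF2 mainly drives genes of sterol synthesis and uptake and SREBF1 those of fatty acid synthesis, and in the liver both set how much cholesterol is made and how much lipoprotein is taken up.

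Among these genes only SCAP was called. A gene was called where edgeR's quasi-likelihood test gave an adjusted p under 0.05 over all genes tested and the absolute log2 fold change, siDGk against siCON, was above 0.5. By that rule 1 of the 8 genes was called, against a background of 14.1% of the 14476 genes tested. The call was of a lower level in siDGk cells, where 6.68% of all genes were called lower and 7.42% higher. At the adjusted p alone 3 genes passed (SCAP, SREBF2 and INSIG2), against 19.7% of all genes. For 5 genes the values of the groups did not overlap, as for 36.0% of all genes. All 8 passed the filter on low counts. Their median log2 fold change was −0.20, beside 0.02 over all genes tested. Of the 8 estimates 7 were negative, beside 7026 of 14476 over all genes tested. Among those 7, the signs of INSIG1, MYLIP and STARD4 turned in some fits with 1 library left out.

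Levels are in CPM, with library sizes scaled by TMM, and the values of 3 libraries follow the order of replicates 1, 2 and 3. DGUOK (ENSG00000114956.19), the targeted gene, was counted 1019, 997 and 506 times in the siCON libraries and 168, 171 and 146 times in the siDGk libraries. All siDGk libraries lay below all siCON libraries. Its log2 fold change was −2.57 (SE 0.19, edgeR adjusted p = 1.64e-08).

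Transcripts that mark hepatocytes were abundant in every library. Of the 12 on the list, ALB was the most abundant in each siCON library and SERPINA1 in each siDGk library. ALB averaged 16110 ± 2372 CPM in siCON and 5401 ± 1038 CPM in siDGk libraries (SD, n = 3). By edgeR, 11 of the 12 were called lower in siDGk cells, against 6.68% of all genes, SERPINA1 being the other, and the list's median log2 fold change was −1.15. Summed over the list, the level was 65280, 60750 and 58680 CPM in the siCON libraries and 35700, 31330 and 29850 CPM in the siDGk libraries. In bulk RNA, fewer cells of a type and less RNA per cell cannot be told apart. Of 13 transcripts that mark blood, endothelial, stromal or bile duct cells, 5 were under 5 CPM in every library, among them the T cell marker CD3E and the macrophage marker CD68. LYZ, KRT19 and ACTA2 exceeded 20 CPM in every library, of which LYZ was the most abundant in each siCON library and KRT19 in each siDGk library. KRT19, a keratin of bile duct cells, averaged 893 ± 139 CPM in siCON and 2539 ± 229 CPM in siDGk libraries (SD, n = 3). COL1A1, a collagen of stromal cells, was at 1.17 ± 0.752 and 19.4 ± 1.75 CPM (SD, n = 3), and both were called higher. These were the only 2 calls among the 12 markers tested, against 7.42% of all genes called higher. Other stromal markers did not follow COL1A1 in every library. COL1A2 was at 0.748, 0 and 0 CPM in the siCON libraries and 6.7, 10.4 and 0 CPM in the siDGk libraries, and was not called. DCN, which was not tested, was at 0 in every siCON library and at 1.135, 1.6 and 0 CPM in the siDGk libraries. ACTA2 had a log2 fold change of −0.18 and was not called. In siDGk replicate 2 the endothelial markers VWF and PECAM1 and the leukocyte marker PTPRC stood apart. VWF was at 31.4 CPM there and at most 1.41 CPM in the other libraries, PECAM1 at 15.9 against at most 2.81 CPM, and PTPRC at 7.94 against at most 2.93 CPM. None of the 13 was at 0 in every library. Summed over all 13, the level was 2382, 2701 and 2711 CPM in the siCON libraries and 4265, 4409 and 4579 CPM in the siDGk libraries. Without LYZ, KRT19 and ACTA2 the sum was 6.84, 10.55 and 6.29 CPM in the siCON libraries. In the siDGk libraries that smaller sum was 36.4, 92.4 and 25.9 CPM, with replicate 2 the highest. These levels differ between the groups along with those of the sterol genes, and their part in the results that follow was not tested.

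**Figure D1:**
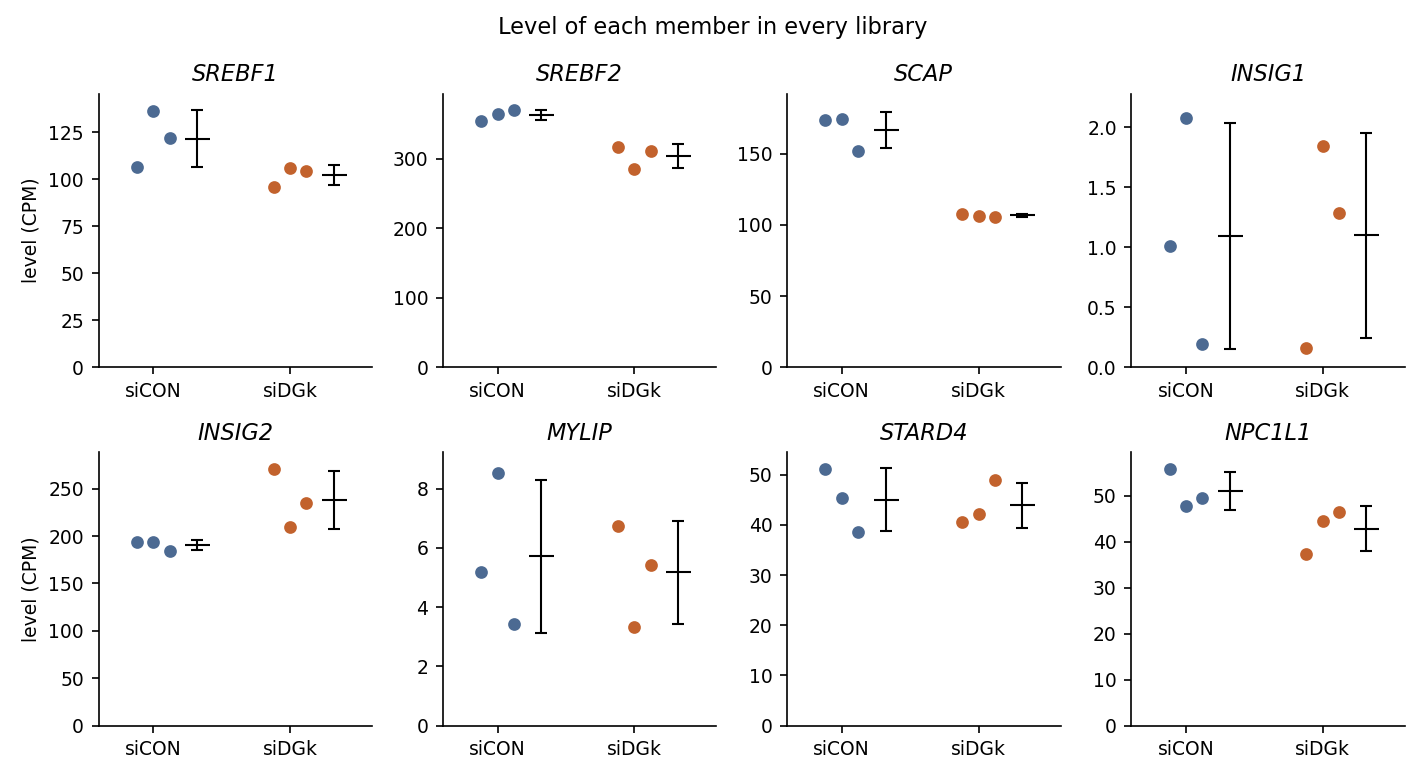
Level of each gene in CPM (vertical axes, each from 0) in the 3 siCON and 3 siDGk libraries. Points are libraries in the order of their replicate numbers, and the bar beside them is the mean ± SD. SCAP lies between 152 and 174 CPM in siCON and between 106 and 108 CPM in siDGk libraries, whereas the INSIG1 values run from 0.162 to 2.08 CPM and overlap.

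SCAP (ENSG00000114650.18, chr3:47413681-47477126, minus strand of GRCh38 in Gencode 44) encodes the sterol sensor and escort. Its level was 174, 174 and 152 CPM in the siCON libraries and 108, 107 and 106 CPM in the siDGk libraries. The siDGk libraries were nearly equal and all lay below the lowest siCON library, replicate 3. SCAP fell from 167 ± 12.9 to 107 ± 0.980 CPM (SD, n = 3), a fall of 36.0%. The log2 fold change was −0.64 (SE 0.09, edgeR adjusted p = 4.38e-05), and it ran from −0.70 to −0.61 with 1 library left out.

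SREBF2 (ENSG00000198911.11, chr22:41833105-41907306, plus strand) encodes the SREBP form that acts mainly on sterol genes. Its level was 355, 365 and 370 CPM in the siCON libraries and 316, 285 and 311 CPM in the siDGk libraries. The groups did not overlap, and siDGk replicate 2 was the lowest. From 363 ± 7.58 to 304 ± 16.9 CPM (SD, n = 3), the difference was −0.26 on the log2 scale (SE 0.08, edgeR adjusted p = 0.0211). The adjusted p was under 0.05, but the difference was smaller than a call needs. In edgeR's fits that left out siCON replicate 2 or 3 or siDGk replicate 2, the adjusted p was 0.0576, 0.117 and 0.117.

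SREBF1 (ENSG00000072310.16, chr17:17810399-17837002, minus strand) encodes the form that acts mainly on fatty acid genes. Its level was 106.3, 136.5 and 121.9 CPM in the siCON libraries and 96.0, 106.1 and 104.5 CPM in the siDGk libraries. siCON replicate 1 and siDGk replicate 2 were almost level, so the groups were separate only by a small margin. The log2 fold change was −0.25 (SE 0.11, edgeR adjusted p = 0.111), which did not pass. On leaving out siCON replicate 2 it was −0.16 (edgeR adjusted p = 0.369), and on leaving out siCON replicate 1 it was −0.34 (edgeR adjusted p = 0.0377), still short of a call. Exons of SREBF1 overlap those of RAI1 on the opposite strand, exons of SREBF2 those of SREBF2-AS1 and exons of STARD4 those of STARD4-AS1. The counting defaults ignore strand and drop reads that overlap several genes, so reads from those exons may be missing.

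INSIG2 (ENSG00000125629.14, chr2:118088452-118110997, plus strand) encodes a retention protein for SCAP. Its level was 194, 194 and 185 CPM in the siCON libraries and 271, 209 and 235 CPM in the siDGk libraries. The siCON libraries were close together and all lay below the siDGk libraries, of which replicate 1 was the highest. From 191 ± 5.23 to 238 ± 30.9 CPM (SD, n = 3), the log2 fold change was 0.32 (SE 0.09, edgeR adjusted p = 0.0198). This too passed the adjusted p and not the fold change threshold, and it was the only positive estimate among the 8 genes. Leaving out siDGk replicate 1 brought it to 0.20 (edgeR adjusted p = 0.169). It also missed the adjusted p without siCON replicate 1 or 3 (edgeR adjusted p = 0.0511 and 0.113).

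INSIG1 (ENSG00000186480.12, chr7:155297776-155310235, plus strand) encodes the other retention protein, itself a known SREBP target. It was counted 19, 39 and 2 times in the siCON libraries and 3, 30 and 28 times in the siDGk libraries. Both groups held a library with at most 3 counts and the groups overlapped. With 1.09 ± 0.946 and 1.099 ± 0.858 CPM (SD, n = 3), the log2 fold change was −0.01 (SE 1.20, edgeR adjusted p = 0.996). Libraries of like depth differed widely, siDGk replicate 1 having 3 of 18613138 counts and siDGk replicate 2 having 30 of 15978314. Without siCON replicate 2 the estimate was 0.83, and without siDGk replicate 1 it was 0.48. No gene of Gencode 44 overlaps INSIG1. The authors counted on Gencode 27, which was not used here. Whether a gene of that release overlaps INSIG1 and lowered its counts was not tested, and this doubt holds for each INSIG1 level and ratio given here.

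MYLIP, STARD4 and NPC1L1 act on cholesterol uptake and its movement in the cell. MYLIP (ENSG00000007944.14, chr6:16129086-16148248, plus strand) is a ubiquitin ligase that sends the LDL receptor to degradation and is induced by the oxysterol receptors LXR. It was counted 97, 160 and 36 times in the siCON libraries and 125, 54 and 118 times in the siDGk libraries. In CPM, siCON replicate 3 and siDGk replicate 2 were the lowest and the groups overlapped. The log2 fold change was −0.15 (SE 0.42, edgeR adjusted p = 0.868). It was 0.26 without siCON replicate 2 and 0.08 without siDGk replicate 2.

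STARD4 (ENSG00000164211.12, chr5:111496033-111512590, minus strand) carries sterol through the cytosol and is a known SREBP target. Its level was 51.1, 45.4 and 38.6 CPM in the siCON libraries and 40.6, 42.1 and 49.05 CPM in the siDGk libraries. The groups overlapped, and the siCON libraries held both the highest and the lowest value. With a log2 fold change of −0.04 (SE 0.15, edgeR adjusted p = 0.903) it did not pass, and without siCON replicate 1 the estimate was 0.06.

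NPC1L1 (ENSG00000015520.14, chr7:44512535-44541330, minus strand) takes up cholesterol at the apical membrane of enterocytes and, in humans, at the bile canaliculus. Its level was 55.8, 47.9 and 49.5 CPM in the siCON libraries and 37.4, 44.6 and 46.6 CPM in the siDGk libraries. All siDGk libraries were below all siCON libraries, replicate 1 by the widest margin. The log2 fold change of −0.25 (SE 0.14, edgeR adjusted p = 0.238) did not pass.

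**Figure D2:**
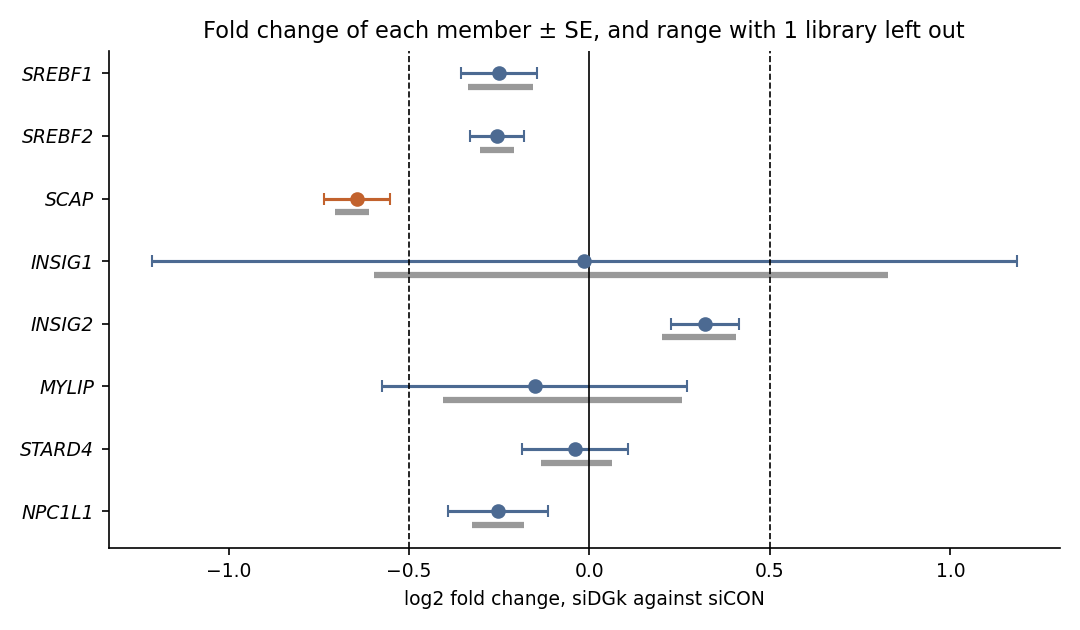
Log2 fold change, siDGk against siCON, of each gene (horizontal axis), as a point with its SE from edgeR's fit. Grey bars span the estimates with 1 library left out, dashed lines mark −0.5 and 0.5, and SCAP, the called gene, is in orange. The grey bar of SCAP runs from −0.70 to −0.61, that of INSIG1 from −0.60 to 0.83.

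To compare genes with each other, levels were divided by exon length in Gencode 44. In siCON cells the order of mean levels per kb of exon was INSIG2 (48.3 CPM per kb), SREBF2 (45.1), SCAP (26.5), SREBF1 (14.8), NPC1L1 (9.70), STARD4 (7.92), MYLIP (1.86) and INSIG1 (0.300). Neighbours in that order did not overlap between libraries, INSIG2 running from 46.8 to 49.1 and SREBF2 from 44.1 to 45.9 CPM per kb. The order of the means was the same in siDGk cells, with INSIG2 at 60.3, SREBF2 at 37.7 and SCAP at 17.0 CPM per kb. There the libraries of NPC1L1 (7.10 to 8.85 CPM per kb) and STARD4 (7.14 to 8.63 CPM per kb) overlapped. Lengths are those of the union of exons, so a gene expressed as a short isoform has a lower value than its molecules would give.

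Ratios within a library do not depend on its depth. SREBF2 had 3.34, 2.67 and 3.03 counts for each count of SREBF1 in siCON replicates 1, 2 and 3, and 3.29, 2.68 and 2.98 in siDGk replicates 1, 2 and 3. The groups overlapped over nearly their whole range. With 0.5 added to each count, the log2 ratio differed by −0.01 between the groups (two-sided exact permutation p = 0.80, adjusted p = 0.80 over 3 ratios). INSIG1 to INSIG2 differed by −0.37 (two-sided exact permutation p = 0.70, adjusted p = 0.80) and INSIG1 to SCAP by 0.58 (two-sided exact permutation p = 0.50, adjusted p = 0.80), both with overlapping groups. The smallest p that 3 against 3 libraries allow is 0.10, so none of these ratios could pass.

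A further ratio, of INSIG2 to SCAP, was chosen after the values were seen and was not tested. There were 1.11, 1.11 and 1.22 counts of INSIG2 for each count of SCAP in siCON replicates 1, 2 and 3, and 2.51, 1.96 and 2.22 in siDGk replicates 1, 2 and 3. The groups did not overlap. The mean log2 ratio was 0.20 ± 0.07 in siCON and 1.15 ± 0.18 in siDGk cells (SD, n = 3), a fold of 1.93. This restates the log2 fold changes of INSIG2 (0.32) and SCAP (−0.64) given above and is no further result.

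**Figure D3:**
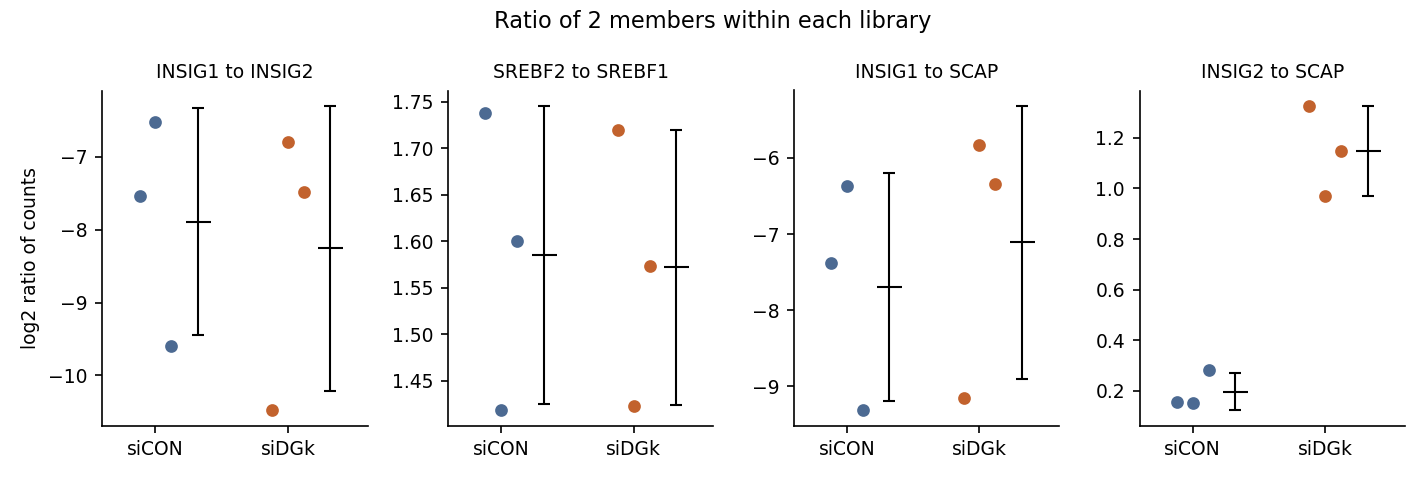
Log2 ratio of the counts of 2 genes within each library (vertical axes, 0.5 added to each count, each panel on its own scale and not from 0). Points are libraries and the bar beside them is the mean ± SD. Groups overlap in the first 3 panels; in the panel of INSIG2 to SCAP the siCON libraries lie at or below 0.28 and the siDGk libraries at or above 0.97.

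The promoters of all 8 genes, 250 bases before to 50 bases after the transcription start, were taken from RefSeq (GRCh38.p14) and searched on both strands. Letters searched were TCACNCCAC for the sterol regulatory element, CACGTG for the E-box, CCAAT for the CCAAT box and GGGCGG for the GC box. Of 35116 windows of this length, 1.13% held the sterol regulatory element, 7.26% the E-box, 34.61% the CCAAT box and 44.95% the GC box. Among the 8 genes, the sterol regulatory element was found in SREBF2 alone, as TCACCCCAC 133 bases before the start, with a CCAAT box read on the other strand as ATTGG 106 bases before it. An E-box stood 58 bases before the start of SCAP and 55 bases before that of INSIG1. Matches to different motifs did not overlap. CCAAT boxes were found in 5 of the 8 genes: SREBF2, INSIG1, MYLIP, STARD4 and NPC1L1. GC boxes were found in each gene but NPC1L1, and SREBF1 and INSIG2, the latter with 2 starts, had no other match. Distances are from the RefSeq start. For SREBF1, SCAP, INSIG1, INSIG2 and STARD4 that start lies inside the Gencode 44 span given above, which includes transcripts that begin farther upstream, so the SCAP stretch and the INSIG1 E-box fall within those spans. A match is a description of the letters and no evidence of binding, and a window with no match lacks only these letters. The 3 stretches with these matches are shown because they belong to the sensor, its retention protein and the factor they control. Capitals mark the sterol regulatory element and the CCAAT box in SREBF2 (chr22:41832955-41833044, plus strand), the E-box in SCAP (chr3:47475952-47476031, minus strand) and the CCAAT box and E-box in INSIG1 (chr7:155297678-155297847, plus strand). GC boxes are left in lower case.
SREBF2 promoter: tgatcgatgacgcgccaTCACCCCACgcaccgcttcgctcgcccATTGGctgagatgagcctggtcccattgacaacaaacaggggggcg
SCAP promoter: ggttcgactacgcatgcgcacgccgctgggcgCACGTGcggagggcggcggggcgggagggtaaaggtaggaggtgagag
INSIG1 promoter: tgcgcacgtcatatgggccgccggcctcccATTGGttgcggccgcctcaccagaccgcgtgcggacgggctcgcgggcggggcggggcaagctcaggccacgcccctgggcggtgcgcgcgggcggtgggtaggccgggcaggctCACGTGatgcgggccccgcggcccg

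**Figure D4:**
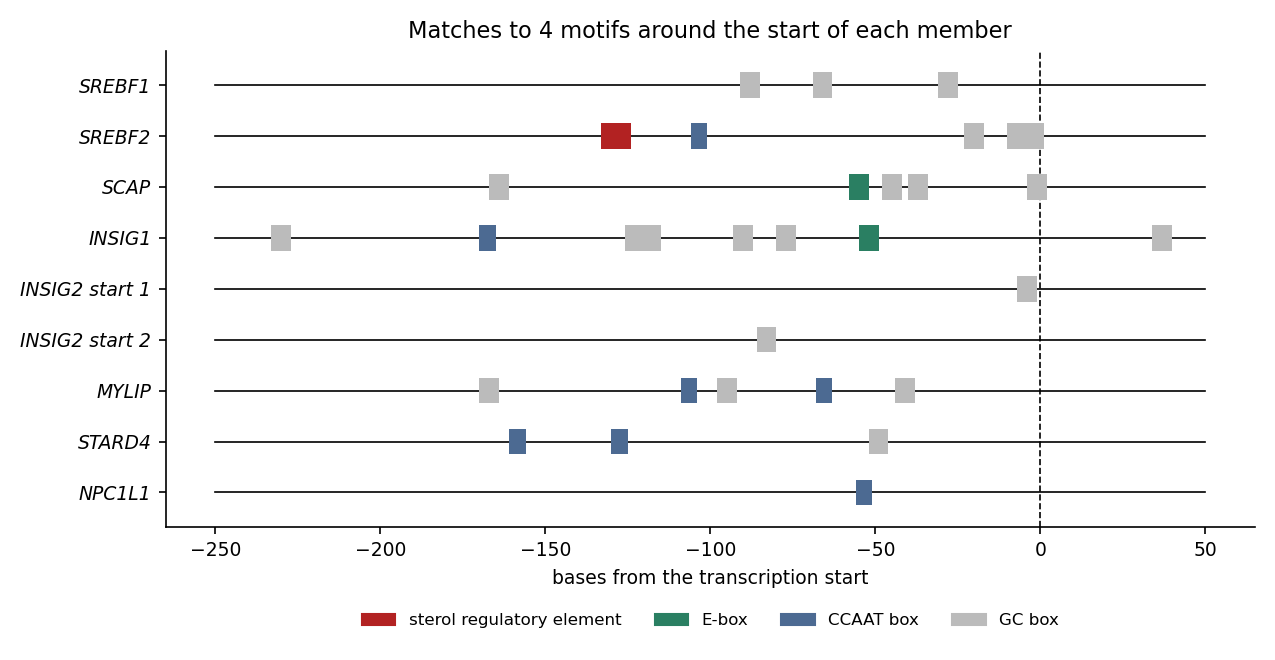
Matches to the 4 motifs (coloured boxes, to scale) in the promoter of each gene, by distance in bases from the RefSeq transcription start (horizontal axis, dashed line at the start). The sterol regulatory element appears in SREBF2 alone, 133 bases before the start, and the E-box in SCAP and INSIG1.

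Both SREBF genes carry a microRNA in an intron. miR-33a-5p lies in SREBF2 (chr22:41900949-41900969, plus strand) and miR-33b-5p in SREBF1 (chr17:17813897-17813916, minus strand), and both are known to repress sterol export genes such as ABCA1. Their mature sequences from RefSeq share the seed UGCAUUG, bases 2 to 8, in capitals.
miR-33a-5p: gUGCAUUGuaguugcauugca
miR-33b-5p: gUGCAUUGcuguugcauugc
MIR33A had 0 counts in every library and MIR33B 7 counts, all in siDGk replicate 1. These libraries were made from poly(A) RNA, which does not hold mature microRNAs, so they do not measure either one.

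Proteins that move, cut or degrade SREBP, SCAP and INSIG formed a list of 29 symbols, of which 28 were in the table and tested. By edgeR, siDGk cells had 2 of them called higher and 2 lower, and 9 passed the adjusted p alone. These 4 calls among 28 genes are near the 14.1% of all genes called, and 9 of 28 stand beside 19.7% at the adjusted p. The list's median log2 fold change was −0.16, beside 0.02 over all genes. PAQR3, a Golgi protein that tethers SCAP and SREBP there, was at 19.5, 19.2 and 15.8 CPM in the siCON libraries and 43.0, 48.8 and 42.2 CPM in the siDGk libraries. Every siDGk library was above every siCON library, and PAQR3 rose by 1.29 on the log2 scale (SE 0.16, edgeR adjusted p = 1.45e-05). C12orf49, also named SPRING1, a Golgi membrane protein needed for SREBP processing, rose from 69.7 ± 9.11 to 101 ± 7.86 CPM (SD, n = 3). Its log2 fold change was 0.54, and C12orf49 was not called without siCON replicate 3 (0.46) or siDGk replicate 2 (0.47), or with DESeq2's shrunken fold changes (0.498). ERLIN2, an endoplasmic reticulum protein that binds sterol and SCAP complexes, fell from 63.0 ± 3.99 to 41.9 ± 7.95 CPM (SD, n = 3). Its log2 fold change was −0.59, and −0.45 without siDGk replicate 3, where it was not called.

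The proteases of the Golgi step differed in sign. MBTPS2, the second protease to cut, fell from 34.7 ± 3.47 to 24.3 ± 2.11 CPM (SD, n = 3), or by 0.52 on the log2 scale (SE 0.17, edgeR adjusted p = 0.0326). That call was lost on leaving out any siCON library, whether replicate 1 (−0.44), 2 (−0.53) or 3 (−0.59), and on leaving out siDGk replicate 1 (−0.49) or 3 (−0.51). In those edgeR fits the adjusted p ran from 0.0504 to 0.137. With DESeq2's shrunken fold changes MBTPS2 was at −0.47 and not called. MBTPS1, which makes the initial cut, had a log2 fold change of 0.22 and did not pass (edgeR adjusted p = 0.106). Of the ubiquitin ligases that act on INSIG proteins or on sterol synthesis, RNF139 was at 0.16 and RNF145 at 0.25 on the log2 scale, and neither passed. With 1 library left out they ran from 0.04 to 0.27 and from 0.02 to 0.39. FAF2, which helps extract ubiquitinated proteins from the membrane, passed the adjusted p with a log2 fold change of 0.49. It was called on leaving out siCON replicate 1 (0.51) or siDGk replicate 1 (0.55) or 2 (0.53), but without siDGk replicate 3 it was 0.36 and missed the adjusted p (edgeR adjusted p = 0.088).

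Genes of sterol and fatty acid synthesis, which SREBP proteins are known to activate, were mostly lower in siDGk cells. The SREBP targets INSIG1 and STARD4 were not called (−0.01 and −0.04, as above), INSIG1 with an SE too wide to tell. Of 21 enzymes of sterol synthesis, all tested, 15 were called lower and 0 higher by edgeR, while 19 had an adjusted p under 0.05; over all genes 6.68% were called lower and 19.7% had such an adjusted p. All 21 estimates were negative, with a median log2 fold change of −0.61. HMGCS1, an early enzyme of the mevalonate pathway, fell from 504 ± 29.1 to 133 ± 6.77 CPM (SD, n = 3). LSS, MVD, CYP51A1 and HSD17B7, enzymes on the path to cholesterol, were called lower with log2 fold changes of −0.96, −0.92, −0.95 and −0.91. Of 18 genes of fatty acid synthesis, 15 were tested; 8 were called lower and 0 higher, against the same 6.68%, with a median of −0.52. The largest falls were in GPAM, a first enzyme of glycerolipid synthesis (−1.23), PNPLA3, a lipid droplet protein (−1.06), ACSS2, which makes acetyl-CoA from acetate (−0.98), FADS2, a desaturase (−0.95), FASN, the fatty acid synthase (−0.75), and ELOVL6, an elongase (−0.64). The hepatocyte markers fell in the same libraries, as given above.

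LXR receptors sense oxysterols and induce MYLIP. NR1H2 and NR1H3, which encode them, had log2 fold changes of 0.07 and −0.05 and did not pass. With 1 library left out NR1H2 ran from 0.02 to 0.12, and NR1H3 changed sign. Their partner RXRA passed the adjusted p with −0.39, though not without siCON replicate 1 or siDGk replicate 1 (edgeR adjusted p = 0.0801 and 0.0769). Of the 12 genes of this list 11 were tested, 1 was called higher and 2 lower, against 7.42% and 6.68% of all genes, and the median log2 fold change was −0.31. TTC39B, known to promote LXR degradation, was at 5.82, 5.97 and 8.77 CPM in the siCON libraries and 16.3, 15.02 and 16.4 CPM in the siDGk libraries. The groups were well apart, and TTC39B rose by 1.23 on the log2 scale (SE 0.26, edgeR adjusted p = 0.00254). ABCA1, the exporter of cholesterol and an LXR target, fell from 94.7 ± 6.47 to 63.1 ± 5.14 CPM (SD, n = 3). LPCAT3, an LXR-induced enzyme of phospholipid remodelling, was called with −0.52. It was not called on leaving out siCON replicate 1 (−0.51) or 2 (−0.48) or siDGk replicate 3 (−0.48), or with DESeq2's shrunken fold changes (−0.48).

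Receptors of the LDL receptor family, their adaptors and the partners of MYLIP were tested for 24 of 25 genes. By edgeR, siDGk cells had 4 of them higher and 5 lower past both thresholds, or 9 of 24 against 14.1% of all genes called, and the median log2 fold change was −0.10. DAB2, a clathrin adaptor for these receptors, was at 23.5, 20.3 and 21.5 CPM in the siCON libraries and 53.0, 71.8 and 73.9 CPM in the siDGk libraries. The lowest siDGk library was still far above the siCON libraries, and DAB2 rose by 1.61 on the log2 scale (SE 0.16, edgeR adjusted p = 5.95e-07). SORL1, a sorting receptor of the same family, was at 242, 265 and 258 CPM in the siCON libraries and at 140, 115 and 117 CPM in the siDGk libraries, with no overlap, and fell by 1.04 on the log2 scale. UBE2D1, a ubiquitin-conjugating enzyme that works with MYLIP, rose from 19.8 ± 3.49 to 36.6 ± 4.92 CPM (SD, n = 3). VLDLR, a receptor that MYLIP also targets, was called higher (0.66), a call lost on leaving out siCON replicate 1 (0.51) or 3 (0.65) or siDGk replicate 1 (0.59). SCARB1, the HDL receptor, was called lower (−0.64) and ANXA2, a membrane-binding protein at the cell surface, was called higher (0.60).

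Genes that move or store sterol were tested for 19 of 22. Of these, 1 was called higher and 4 lower in siDGk cells, 8 passed the adjusted p alone in edgeR's test, beside 14.1% of all genes called and 19.7% at the adjusted p, and the median log2 fold change was −0.27. LIPA, the lysosomal lipase that frees cholesterol from lipoprotein esters, fell from 127 ± 5.29 to 60.4 ± 3.33 CPM (SD, n = 3), and NPC2, which carries that cholesterol inside the lysosome, from 112 ± 1.73 to 67.3 ± 5.35 CPM (SD, n = 3). NPC1, the membrane protein that takes it over, had a log2 fold change of 0.48, which passed the adjusted p but was short of a call. It reached a call only on leaving out siCON replicate 2 or 3, at 0.50 in each. GRAMD1A, which moves sterol from the plasma membrane to the endoplasmic reticulum, was at 104, 126 and 117 CPM in the siCON libraries and 222.5, 196 and 241.5 CPM in the siDGk libraries. The groups did not overlap, and GRAMD1A rose by 0.93 on the log2 scale (SE 0.10, edgeR adjusted p = 1.89e-06). SCP2, a sterol carrier of peroxisomes and cytosol, was called lower with −0.82. SOAT2, which esterifies cholesterol in hepatocytes, was called lower with −0.68, a call lost without siCON replicate 2 (−0.46).

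**Figure D5:**
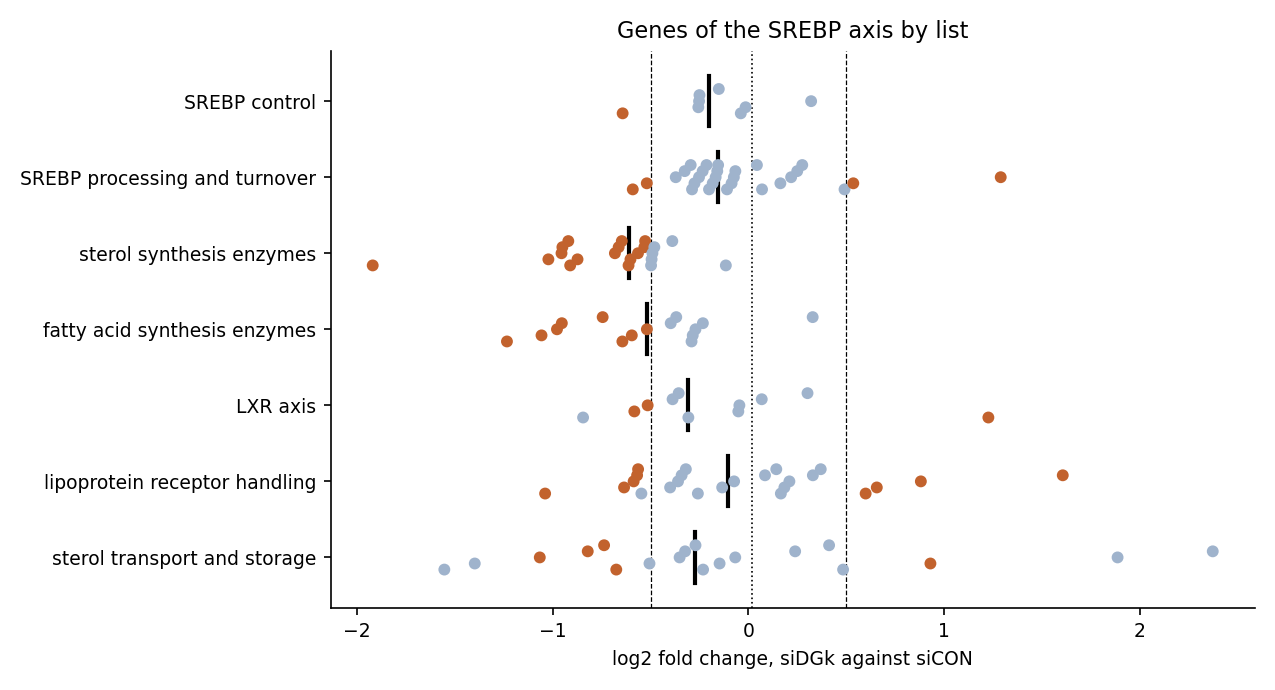
Log2 fold change, siDGk against siCON (horizontal axis), of the tested genes of each list, with called genes in orange and others in blue. Black bars are list medians, the dotted line is the median of all genes tested (0.02) and dashed lines mark −0.5 and 0.5. Sterol synthesis enzymes all lie below 0 with a median of −0.61, while the 8 SREBP control genes have a median of −0.20.

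For each of the 8 genes, the 3 genes closest in pattern were found among all genes tested, by the root mean square difference of log2 CPM over the 6 libraries after each gene's mean was removed. For SCAP these were SLC22A31 (0.053), DDAH1 (0.055) and ATP6AP1 (0.057). SREBF2 was nearest to ABAT (0.027), CCNY (0.034) and B4GALT5 (0.038), and SREBF1 to UBR2 (0.025), DCXR (0.045) and CUTA (0.045). INSIG2 was nearest to SKAP2 (0.041), REEP3 (0.045) and RTN4 (0.045). For STARD4 they were FOXM1 (0.025), HERC2 (0.031) and MAPKAPK3 (0.044), and for NPC1L1 they were SLC38A10 (0.023), ARID5B (0.050) and POGK (0.051). MYLIP and INSIG1 had no gene as close: BEST4 was at 0.11 from MYLIP and OSMR-AS1 at 0.40 from INSIG1. No gene among the nearest belonged to the lists above.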

How the data were processed

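The authors made the deposited gene counts from paired-end reads of poly(A) RNA. Their methods state that rRNA, tRNA, adapter and spike-in reads were removed, and that STAR 2.6.1 aligned the rest to GRCh38 and Gencode 27. Low-complexity alignments were dropped before counting with featureCounts 1.6.5 at its defaults plus a minimum quality cutoff. The values are whole counts, neither normalized nor averaged. The library kit was not given in the sources used here.

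Here, 24670 genes had a count and 14476 passed filterByExpr of edgeR 4.0.16 (minimum count 10) in R 4.3.3. Counts were scaled by TMM and compared by edgeR's quasi-likelihood test with Benjamini-Hochberg adjustment over all genes tested. SE was taken as the absolute log2 estimate over the root of the F statistic. Log2 CPM used a prior count of 2. The script was tested on simulated counts. Pairs of replicates differed by more than sampling noise. Alternatives were RLE scaling, no filter, DESeq2 1.42.0 with and without shrinkage, replicate number as a block, adjusted p alone and each library left out.

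The members and lists were chosen with earlier results of these data known. Named genes are the members, DGUOK, up to 6 called genes of each list with the largest fold changes, regulators with a described role, some cell type markers and the 3 genes nearest each member, or the nearest alone for MYLIP and INSIG1. Not every gene of this axis is reported here.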

Additional observations from a re-analysis of the deposited data

How the results depend on the processing

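SCAP was called lower under each alternative, and no other of the 8 genes was called except SREBF2 and INSIG2 at the adjusted p alone, which raised the number called from 1 to 3. The count over all genes was 2041, between 1859 and 2172 under RLE scaling, no filter and DESeq2 with and without shrinkage, and between 1704 and 1935 with 1 library left out. With the replicate block it was 2077. Between same-numbered libraries, deviations from the group means correlated at 0.024, 0.017 and −0.0022 across genes for replicates 1, 2 and 3. The labels do not say whether same-numbered libraries were paired, and the main fit used no pairing. Calls among the SREBP processing genes went from 4 to 2 with shrunken fold changes, to 9 at the adjusted p alone, and ran from 2 to 4 with 1 library left out. At the adjusted p alone, calls rose from 3 to 5 in the LXR list (2 with shrunken fold changes) and from 5 to 8 in the list of sterol transport and storage. With 1 library left out, the sign turned for INSIG1 (−0.60 to 0.83), MYLIP (−0.41 to 0.26), STARD4 (−0.14 to 0.064) and NR1H3 (−0.23 to 0.079), none of them called, and for the log2 ratios INSIG1 to INSIG2 (−1.22 to 0.75), SREBF2 to SREBF1 (−0.10 to 0.063) and INSIG1 to SCAP (−0.23 to 1.61). The cause was not tested. INSIG1 had from 2 to 39 counts a library.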
